A study of Homo sapiens with 4 samples.

Results

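Interferon-stimulated genes were compared between COLO-320DM cells and 320-IWR cells. The list holds 56 symbols, and a gene counted as a member when at least 1 probe set of the array was annotated to that symbol and to no other gene. By this rule 55 of the 56 genes were measured, with 94 probe sets, out of 19775 genes and 54613 probe sets. STAT2, a subunit of the factor that carries the type I interferon signal to the nucleus, was the listed gene without such a probe set, and it was not analysed here. COLO-320DM is an established human colorectal cancer line. Its subline 320-IWR was selected by long culture with IWR-1, an inhibitor of the poly(ADP-ribose) polymerase tankyrase, and is resistant to tankyrase inhibitors. The subline was not described as a single clone, neither line was treated with interferon according to the sources used here, and whether IWR-1 was present when the 320-IWR cells were harvested is not given in them. Total RNA of each line was hybridized to 2 GeneChip Human Genome U133 Plus 2.0 arrays, so 4 arrays carry the comparison. Nothing says that the arrays of a line came from separate cultures, and the p-values therefore rest on the spread between arrays alone, which may be technical.

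Interferons are secreted proteins that warn cells of infection. Type I interferons bind the receptor pair IFNAR1 and IFNAR2, type III interferons bind IFNLR1 together with IL10RB, and both receptors act through the kinases JAK1 and TYK2 on a transcription factor complex that contains IRF9. This complex binds a DNA element in front of the interferon-stimulated genes, whose products sense viral RNA, block viral entry, translation or assembly, or attach the ubiquitin-like protein ISG15 to other proteins. Epithelial cells, including those of the intestine, respond to both interferon types, and many of these genes have a basal level without any added interferon.

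The promoters of 6 genes are shown because they carry this element and belong to genes on which the comparison below turns: HERC5, DDX60L and IFIT5, which had the largest differences between the lines among the 55 members, ISG15, the founding gene of the group, which differed little, and the stretch shared by PARP9 and DTX3L. The windows are those of RefSeq on GRCh38.p14, from 250 bases before to 50 bases after the transcription start, and they are written 5′ to 3′ on the strand of the gene. Capitals mark matches to the core of the interferon-stimulated response element, which is GAAA, any 2 bases and GAAA again, or TTTC, any 2 bases and TTTC where it lies on the other strand.
HERC5, chr4:88456869-88457168, plus strand: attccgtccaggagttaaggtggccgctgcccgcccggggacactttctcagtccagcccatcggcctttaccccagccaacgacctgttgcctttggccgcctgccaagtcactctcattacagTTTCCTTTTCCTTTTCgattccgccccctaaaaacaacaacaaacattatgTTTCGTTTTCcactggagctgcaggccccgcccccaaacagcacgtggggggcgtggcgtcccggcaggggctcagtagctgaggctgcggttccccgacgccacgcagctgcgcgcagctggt
DDX60L, chr4:168480443-168480742, minus strand: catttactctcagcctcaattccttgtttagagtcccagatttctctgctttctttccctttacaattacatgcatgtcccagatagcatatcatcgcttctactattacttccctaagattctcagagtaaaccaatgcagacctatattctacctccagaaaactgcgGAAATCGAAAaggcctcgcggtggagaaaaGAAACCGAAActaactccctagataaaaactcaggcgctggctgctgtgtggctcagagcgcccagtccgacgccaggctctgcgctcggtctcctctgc
IFIT5, chr10:89414318-89414617, plus strand: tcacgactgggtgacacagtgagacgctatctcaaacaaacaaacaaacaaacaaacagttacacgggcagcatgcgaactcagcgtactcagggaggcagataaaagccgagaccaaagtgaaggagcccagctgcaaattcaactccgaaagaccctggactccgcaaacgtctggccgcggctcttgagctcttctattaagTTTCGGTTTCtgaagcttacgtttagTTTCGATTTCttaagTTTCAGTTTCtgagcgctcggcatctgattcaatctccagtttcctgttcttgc
ISG15, chr1:1013247-1013546, plus strand: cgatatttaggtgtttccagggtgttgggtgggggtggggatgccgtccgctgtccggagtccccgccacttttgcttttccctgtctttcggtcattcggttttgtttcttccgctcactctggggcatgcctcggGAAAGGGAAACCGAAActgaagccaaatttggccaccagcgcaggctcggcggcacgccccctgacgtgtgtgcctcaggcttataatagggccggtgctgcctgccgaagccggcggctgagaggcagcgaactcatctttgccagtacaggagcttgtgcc
PARP9 and DTX3L are transcribed away from each other, and the windows around their starts overlap over 137 bases with 1 match, shown on the strand of DTX3L.
PARP9 and DTX3L, chr3:122564251-122564387, plus strand: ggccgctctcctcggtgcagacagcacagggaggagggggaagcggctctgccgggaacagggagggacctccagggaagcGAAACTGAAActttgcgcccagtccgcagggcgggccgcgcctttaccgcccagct

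Of the 55 members, HERC5 and DDX60L fell in 320-IWR cells and none rose. Here a gene is said to rise or fall at a Benjamini-Hochberg adjusted p under 0.05 over all probe sets in limma together with at least a 2-fold difference, and each gene is represented by its brightest probe set, that with the largest mean of the log2 values. By the same rule 0.399% of all genes were lower in 320-IWR cells and 0.192% were higher, 0.592% in either direction together, against 3.64% of the members that were lower. Of the 94 member probe sets 2 were called lower, against 0.258% of all probe sets, and 0 higher. Taken without the threshold, the 55 members, HERC5 and DDX60L included, leaned to lower values. Their median log2 fold change was -0.12 against 0.02 over all genes, and 36 of the 55 (65.5%) had a negative value against 45.8% of all genes. At an unadjusted p under 0.05, 16 members (29.1%) were lower and 2 (3.64%) higher, while over all genes the shares were 6.36% and 5.91%. A 2-fold lower value was found for 5 members (9.09%), HERC5, IFIT5, DDX60L, SAMD9 and PARP9, and for 1.93% of all genes, and no member was 2-fold higher, against 0.870% of all genes. In 24 members both 320-IWR arrays lay below both COLO-320DM arrays (43.6%, against 17.5% of all genes), in 6 they lay above (10.9%, against 21.0%), and in the other 25 the lines overlapped. Since the list was chosen with results of these arrays known, these shares are a description and the list itself was not tested. In RNA of whole cultures, fewer cells that express a gene and less RNA per cell cannot be told apart.

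**Figure D1:**
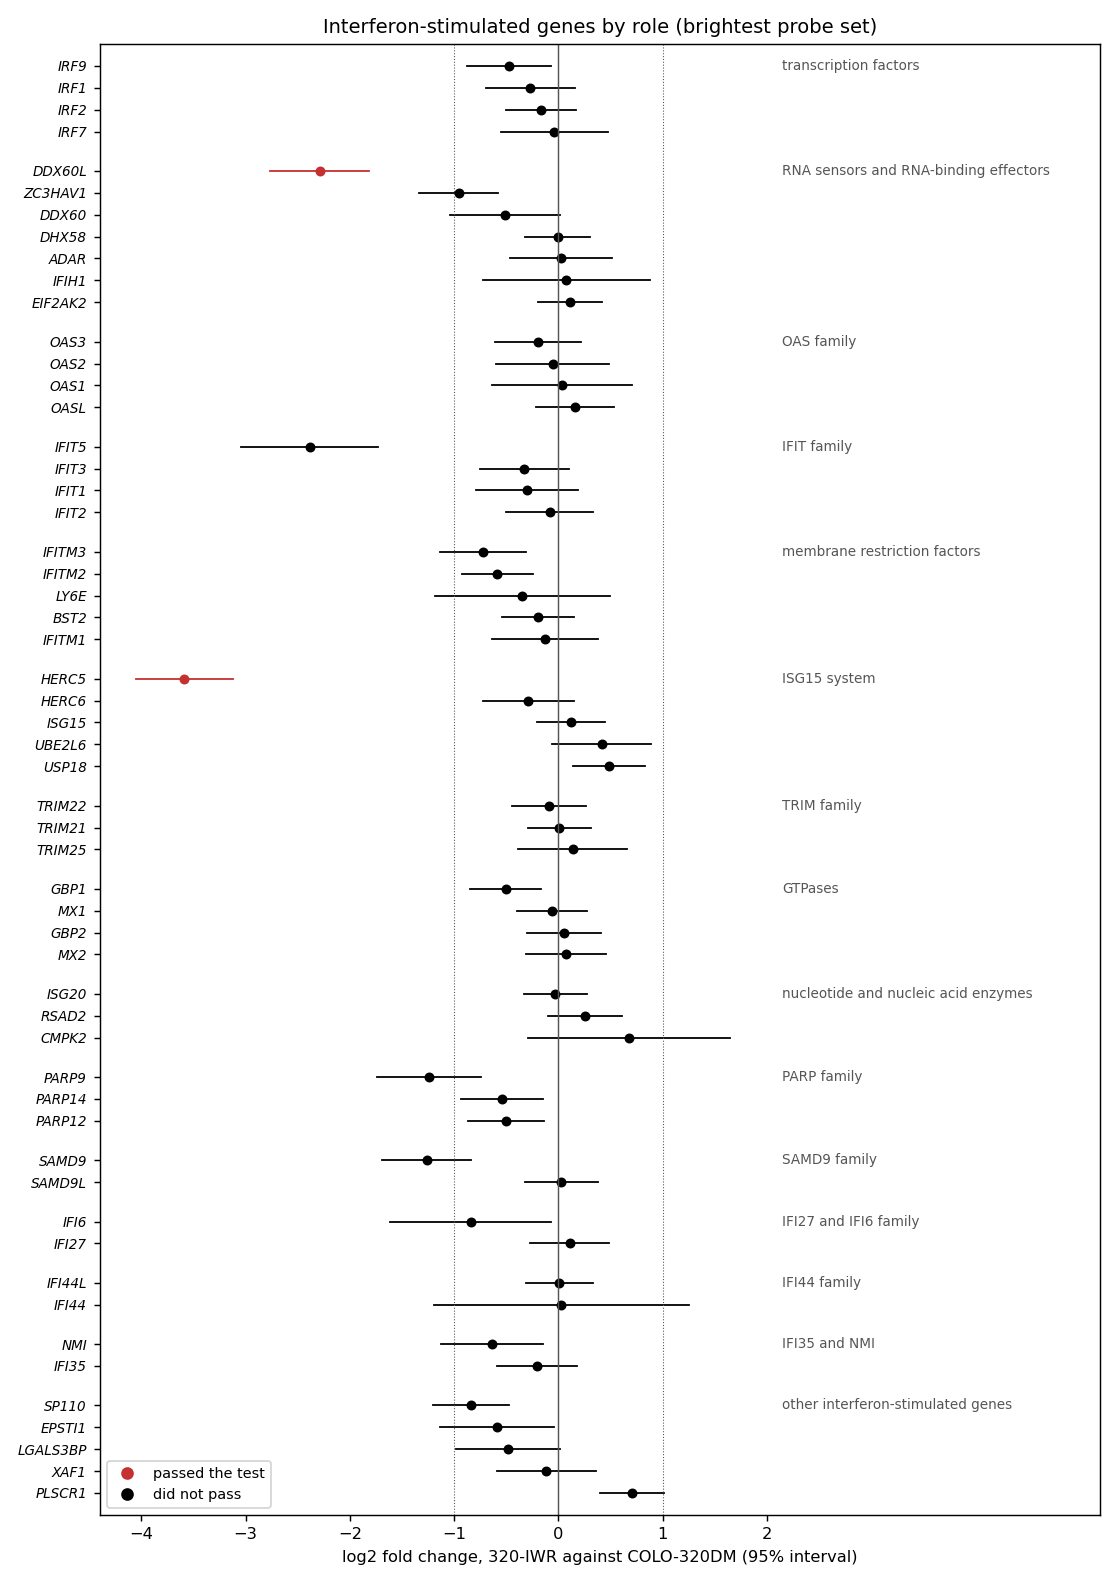
Log2 fold change of each of the 55 members in its brightest probe set, grouped by role, with the 95% interval from limma; dotted lines mark 2-fold differences. HERC5 (-3.59) and DDX60L (-2.29), in red, passed the test, and IFIT5 (-2.39) lies as far to the left as DDX60L without passing.

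HERC5, the main ligase that attaches ISG15 to newly made proteins, showed the largest difference of all members. Its only probe set read 318 and 418 in COLO-320DM cells against 32.0 and 28.7 in 320-IWR cells. Both 320-IWR values lay far below both parental values, with means of 368 ± 70.6 and 30.3 ± 2.33 (SD, n = 2 each). These 320-IWR values were under the median of all probe sets (41.5). The same held for the 320-IWR values of the brightest probe sets of DDX60L, IFIT5, IFNLR1, CXCL11 and TRIM5. Without detection calls it is not known how much of such a value is signal, so the sizes of these folds are uncertain. For HERC5 the log2 fold change was -3.59 (standard error 0.18, 95% interval -4.05 to -3.12, adjusted p = 0.0103), or 12-fold. The call held without COLO-320DM replicate 1 (adjusted p = 0.0382) or replicate 2 (0.0426), and not without 320-IWR replicate 1 (0.148) or replicate 2 (0.165). In the latter fits limma called 0 of the 54613 probe sets, while 3756 and 3502 had an unadjusted p under 0.05.

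None of the other 4 genes of the ISG15 system passed the test. ISG15 itself had intensities of 204 and 187 in COLO-320DM cells and of 220 and 204 in 320-IWR cells (log2 fold change 0.12, 95% interval -0.21 to 0.44), so that a 2-fold difference lies outside its interval. USP18, the protease that removes ISG15 from its targets and also restrains the type I interferon receptor, had 154 and 149 in the parental line and 228 and 198 in the subline. Both 320-IWR arrays were higher for USP18, with a log2 fold change of 0.49 and an adjusted p of 0.318. UBE2L6, the conjugating enzyme that hands ISG15 to HERC5, had a log2 fold change of 0.41 (adjusted p = 0.595). HERC6, the neighbouring gene of HERC5 on chromosome 4, had 140 and 178 against 122 and 137, a log2 fold change of -0.29 (adjusted p = 0.748).

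Among the RNA sensors and RNA-binding effectors, DDX60L fell and the other 6 members did not pass the test. DDX60L encodes a helicase-like antiviral protein related to DDX60. Its brightest probe set read 209 and 154 in COLO-320DM cells against 36.4 and 37.0 in 320-IWR cells, and the groups did not overlap. The means were 182 ± 39.3 and 36.7 ± 0.387 (SD, n = 2 each). This is a 4.89-fold difference, or -2.29 on the log2 scale (standard error 0.18, adjusted p = 0.0307). A second, dimmer DDX60L probe set had 44.8 and 32.0 against 23.8 and 15.2 (log2 fold change -0.996, adjusted p = 0.347). DDX60L no longer passed when any array was left out, whether COLO-320DM replicate 1 (adjusted p = 0.0860) or 2 (0.0559) or 320-IWR replicate 1 (0.294) or 2 (0.289). It rests on a probe set whose name ends in _s_at, a mark for probes that can match several transcripts.

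ZC3HAV1, the zinc finger antiviral protein that binds CG-rich viral RNA, had 78.1 and 88.8 in COLO-320DM cells and 46.2 and 39.9 in 320-IWR cells. The 320-IWR arrays were lower for ZC3HAV1 in all 3 of its probe sets, and the brightest gave a log2 fold change of -0.96 (95% interval -1.34 to -0.58, adjusted p = 0.121). DDX60, next to DDX60L on chromosome 4, had intensities of only 5.34 to 9.56 on the 4 arrays. For IFIH1, which encodes the double-stranded RNA sensor MDA5, the arrays of a line differed more than the lines, with 264 and 477 in COLO-320DM cells and 346 and 405 in 320-IWR cells. Its log2 fold change was 0.08 with a standard error of 0.31. The RNA-editing enzyme gene ADAR, the RNA-activated kinase gene EIF2AK2 and DHX58, which encodes the sensor LGP2, had log2 fold changes of 0.03, 0.11 and -0.01. In ADAR the values were 1193 and 1495 against 1215 and 1526, with replicate 2 higher than replicate 1 by a similar step in both lines.

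The 4 IFIT genes lie in a cluster on chromosome 10 and encode proteins that bind foreign RNA. In their brightest probe sets all had negative log2 fold changes, and none passed the test. IFIT5 had intensities of 159 and 116 in COLO-320DM cells and of 31.1 and 21.7 in 320-IWR cells. Both 320-IWR values lay below both parental ones. The log2 fold change of -2.39 (standard error 0.25, 95% interval -3.04 to -1.73) missed the threshold with an adjusted p of 0.060. It passed under cyclic loess (adjusted p = 0.0486) and with equal array medians (0.0477), and without single arrays its adjusted p ran from 0.117 to 0.319. The other IFIT5 probe set had a smaller difference in the same direction, with a log2 fold change of -0.68 (adjusted p = 0.282). IFIT1, the cap-binding member of the family, had 226 and 172 against 174 and 147 (log2 fold change -0.30, 95% interval -0.79 to 0.19), and its lines overlapped. IFIT3 had a log2 fold change of -0.33 (adjusted p = 0.670) in its brightest probe set, where the 320-IWR arrays were the lower ones. A dim second IFIT3 probe set had 17.9 and 18.2 against 7.97 and 8.19, a log2 fold change of -1.16 (adjusted p = 0.0536). IFIT2 had a log2 fold change of -0.08 (95% interval -0.50 to 0.33) and overlapping arrays in its brightest probe set. Its dimmer probe set went the other way, with 8.84 and 8.76 in COLO-320DM cells against 9.59 and 8.88 in 320-IWR cells. The log2 fold change there was 0.07 (adjusted p = 0.979).

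The transcription factors that drive these genes showed small negative values and no call. IRF9, a DNA-binding part of the complex that the interferon receptors activate, had 129 and 109 in COLO-320DM cells and 92.1 and 79.1 in 320-IWR cells. The 2 lines did not overlap in IRF9, with a log2 fold change of -0.47 (95% interval -0.88 to -0.07, adjusted p = 0.421). A further probe set, annotated to both IRF9 and RNF31, was left out of the members. It had 63.9 and 68.3 against 51.7 and 49.4 (log2 fold change -0.39, adjusted p = 0.390 in limma). IRF1, which acts early after interferon gamma, had a log2 fold change of -0.27 in its brightest probe set and of 0.11 in the other. IRF2, an antagonist of IRF1, had 99.0 and 96.6 against 81.6 and 93.0 (log2 fold change -0.17). IRF7, the factor that amplifies interferon production, was dim and overlapping, at 19.6 and 15.9 against 15.0 and 19.7 (log2 fold change -0.04, 95% interval -0.55 to 0.48).

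Of the 5 membrane restriction factors, none passed the test, and all had negative log2 fold changes. IFITM3, which blocks the fusion of viruses with endosomes, had 1958 and 1997 in COLO-320DM cells and 1346 and 1066 in 320-IWR cells. Both 320-IWR arrays of IFITM3 lay below the parental ones (log2 fold change -0.72, 95% interval -1.13 to -0.31, adjusted p = 0.221). Its paralog IFITM2 had 780 and 818 against 567 and 499 (log2 fold change -0.59, adjusted p = 0.228), also without overlap. IFITM1, the family member at the cell surface, had 1142 and 888 against 1036 and 825, a log2 fold change of -0.12 (95% interval -0.63 to 0.38), with overlapping lines. The 3 genes are close copies of each other, the IFITM2 and IFITM3 values come from _x_at probe sets, which can cross-hybridize, and 1 further probe set annotated to both IFITM1 and IFITM2 was left out. For BST2, which tethers budding viruses, the log2 fold change was -0.20, and for LY6E it was -0.35.

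The PARP genes of the interferon response belong to the poly(ADP-ribose) polymerase family. In their brightest probe sets they were each lower on both 320-IWR arrays, as were 17.5% of all genes, and did not pass the test. PARP9 had 71.4 and 51.2 in COLO-320DM cells and 25.2 and 26.0 in 320-IWR cells (log2 fold change -1.24, 95% interval -1.74 to -0.74, adjusted p = 0.124). Its second, dimmer probe set gave -0.41 on the log2 scale (adjusted p = 0.562). PARP12 had 92.2 and 97.6 against 61.7 and 72.9, a log2 fold change of -0.50 (adjusted p = 0.337). PARP14 had a log2 fold change of -0.54 (adjusted p = 0.340) in its brightest probe set and of 0.02 in the other. DTX3L, the ubiquitin ligase that works as a partner of PARP9 and starts from the same stretch of DNA, is not among the members. It had 64.5 and 75.1 against 28.0 and 19.1, a log2 fold change of -1.59 (95% interval -2.16 to -1.01, adjusted p = 0.105). PARP9 and DTX3L were therefore both more than 2-fold lower in 320-IWR cells, and neither passed the test. Their nearest measured neighbours, KPNA1 and PARP15, had log2 fold changes of 0.20 and 0.07.

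SAMD9, a restriction factor of poxviruses, and its paralog SAMD9L lie next to each other on chromosome 7 and gave different values. SAMD9 had 34.3 and 29.7 in COLO-320DM cells and 14.8 and 11.97 in 320-IWR cells (log2 fold change -1.26, 95% interval -1.69 to -0.83, adjusted p = 0.0912). A second probe set of SAMD9 had 46.5 and 27.1 against 9.44 and 6.29, a log2 fold change of -2.20 (adjusted p = 0.121). SAMD9L was at 20.5 to 23.2 on all 4 arrays (log2 fold change 0.03, 95% interval -0.32 to 0.38). The difference between the paralogs was not tested.

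SP110, a nuclear body protein, had 106 and 92.3 in COLO-320DM cells and 52.5 and 58.1 in 320-IWR cells, without overlap (log2 fold change -0.84, adjusted p = 0.141). Of its 5 probe sets, 3 had log2 fold changes between -1.19 and -0.84 and the remaining ones -0.28 and 0.00. IFI6, a small mitochondrial and endoplasmic reticulum protein, had 339 and 214 against 180 and 125 (log2 fold change -0.84, 95% interval -1.61 to -0.07, adjusted p = 0.463). The lines do not overlap in IFI6, but its replicates lie far apart in both. NMI, an adaptor that binds IFI35, had 31.6 and 24.3 against 19.5 and 16.3 (log2 fold change -0.63, adjusted p = 0.362), and IFI35 had a log2 fold change of -0.21 (adjusted p = 0.821). EPSTI1 had -0.59 (adjusted p = 0.474). LGALS3BP, which encodes a secreted glycoprotein that binds galectins, had -0.49 (adjusted p = 0.534).

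Several of the genes most often used to read an interferon response had log2 fold changes close to 0 and overlapping lines. MX1, a dynamin-like GTPase that traps viral nucleocapsids, had 16.1 and 15.5 in COLO-320DM cells and 16.2 and 14.3 in 320-IWR cells (log2 fold change -0.06, 95% interval -0.39 to 0.28). MX2 had 39.5 and 47.7 against 44.0 and 47.4 (log2 fold change 0.07, 95% interval -0.31 to 0.46). The 4 OAS genes, which encode the RNA-activated synthases of 2′-5′ oligoadenylate and their relative OASL, all overlapped between the lines in their brightest probe sets. Their log2 fold changes there were -0.19 for OAS3, -0.05 for OAS2, 0.04 for OAS1 and 0.16 for OASL. The widest interval, that of OAS1, ran from -0.63 to 0.71. Both 320-IWR arrays were higher in a dimmer OAS2 probe set (0.26) and lower in a dimmer OAS1 probe set (-0.11). IFI27 and IFI44L had log2 fold changes of 0.11 and 0.01, and RSAD2, which encodes the antiviral enzyme viperin, had 0.25 (adjusted p = 0.707). The lines did not overlap in RSAD2, with 11.6 and 9.98 in COLO-320DM cells against 13.2 and 12.5 in 320-IWR cells. IFI44 had 54.9 and 32.8 against 65.5 and 28.7, so that its replicates lay far apart in each line and the difference between the lines was left undetermined (log2 fold change 0.03, 95% interval -1.19 to 1.25). TRIM21, TRIM22 and TRIM25, which encode ubiquitin ligases, had log2 fold changes of 0.01, -0.09 and 0.14, and the exonuclease gene ISG20, the guanylate-binding protein gene GBP2 and XAF1 had -0.03, 0.06 and -0.12. A dimmer ISG20 probe set had 0.21, with both 320-IWR arrays higher. GBP1 had -0.51 (adjusted p = 0.291) at intensities of 8.22 to 12.6, without overlap. For 39 of the 55 members the whole 95% interval lay inside 2-fold in either direction (70.9%), a smaller share than the 87.6% of all genes. A total of 23 members, among them MX1, IFI27 and IFI44L, were dimmer than the median of all probe sets (41.5), and without detection calls the arrays do not tell whether such a gene was expressed in either line.

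PLSCR1, a phospholipid scramblase with antiviral activity, had the largest positive value of all members and did not pass the test. It read 982 and 914 in COLO-320DM cells against 1555 and 1538 in 320-IWR cells, with means of 948 ± 48.4 and 1546 ± 11.7 (SD, n = 2 each). The gap between the lines was larger than the spread within them, and the log2 fold change was 0.71 (95% interval 0.40 to 1.02, adjusted p = 0.145). A second PLSCR1 probe set had 0.79 (adjusted p = 0.153), and the dimmest, at intensities of 4.84 to 5.47, had -0.07. CMPK2, a mitochondrial nucleotide kinase gene beside RSAD2, had 22.8 and 38.9 against 36.4 and 62.2. Its log2 fold change of 0.68 had a 95% interval from -0.29 to 1.64, and the lines overlapped. In both lines replicate 2 of CMPK2 was higher than replicate 1 by 0.77 on the log2 scale. The fit without a replicate term counts this step as spread.

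**Figure D2:**
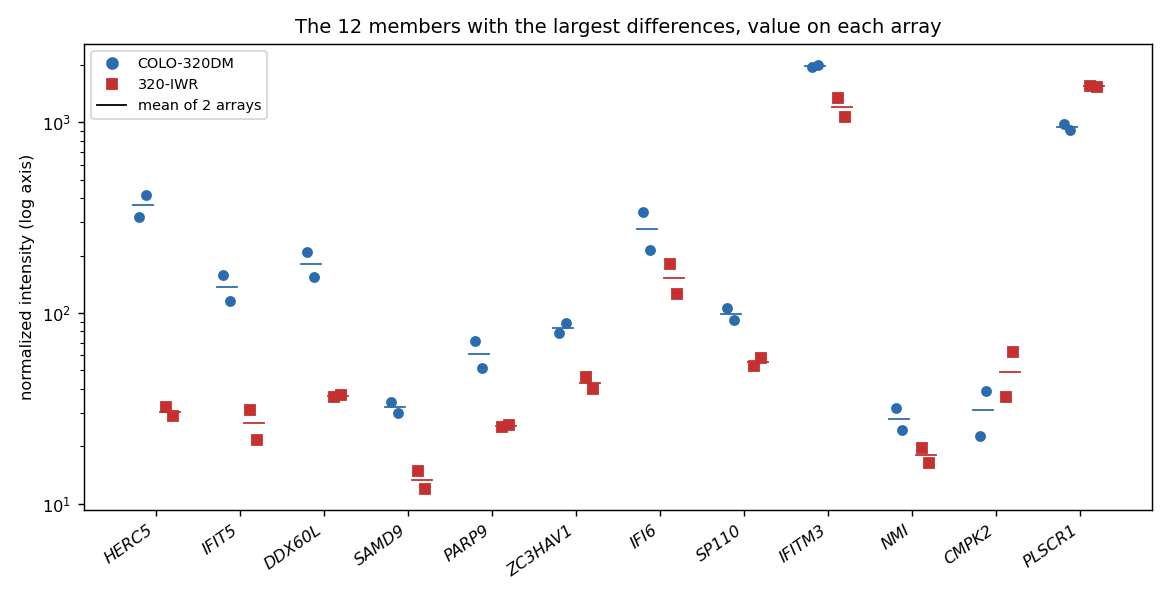
Normalized intensity, on a log axis, of the 12 members with the largest absolute log2 fold changes, with 1 point per array (COLO-320DM blue circles, 320-IWR red squares) and a short line at the mean of the 2 arrays of a line. The 320-IWR points lie below in 10 genes and above in PLSCR1, and in CMPK2 the lines overlap. These genes were picked by the size of the difference on the same arrays, so the counts only describe the picture. Over all genes the 320-IWR arrays lay below in 17.5% and above in 21.0%.

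Probe sets of the same gene did not always give the same size of difference. Of the 27 members with more than 1 probe set, 12 had the same sign in all of them and 17 had a spread under 0.5 on the log2 scale. The spread was 1.70 for IFIT5, 1.29 for DDX60L and 1.19 for SP110. In DDX60L, IFIT5, ZC3HAV1, SAMD9, PARP9, IFIT3 and EPSTI1 every probe set was lower on both 320-IWR arrays than on both COLO-320DM arrays. The remaining 28 members, HERC5 among them, rest on a single probe set, so no second probe set bears on the fall of HERC5.

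**Figure D3:**
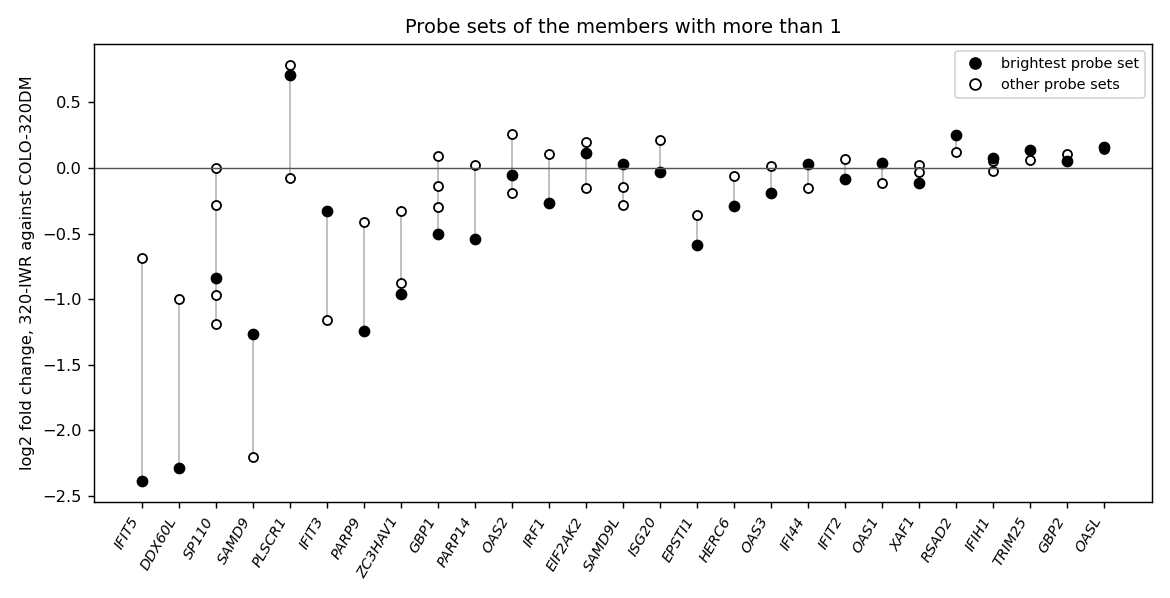
Log2 fold change of every probe set of the 27 members that have more than 1, ordered from the widest to the narrowest spread. Filled points are the brightest probe set of each gene and open points the others; the widest spreads are those of IFIT5 (1.70) and DDX60L (1.29).

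The rest of the interferon pathway was read from 109 measured genes in 5 lists, of which 2 fell (1.83%, against 0.399% of all genes) and 0 rose. At an unadjusted p under 0.05, 7 were lower (6.42%, near the 6.36% of all genes) and 2 higher (1.83%, against 5.91%). None of the 18 interferon ligand genes passed the limma test, with 0 at an unadjusted p under 0.05, and their log2 fold changes lay between -0.16 and 0.22. All ligand genes were dim, with mean intensities of 5.73 to 26.7 against a median of 41.5 over all probe sets. The arrays do not tell whether they were expressed in either line, so these values do not show unchanged expression. IFNB1, the gene of interferon beta, was at 9.21 to 11.5 on the 4 arrays. The list of receptors and kinases had 10 measured genes, among them the transcription factor STAT3. In this list IFNLR1 fell, with 169 and 208 in COLO-320DM cells and 36.5 and 27.2 in 320-IWR cells. Its brightest probe set gave a log2 fold change of -2.57 (standard error 0.20, adjusted p = 0.0291), while its other probe set had 65.9 and 82.1 against 83.2 and 69.6 (log2 fold change 0.05). IFNLR1 passed in none of the fits without 1 array, with adjusted p = 0.0968 and 0.108 when COLO-320DM replicates 1 and 2 were left out and 0.179 and 0.220 when 320-IWR replicates 1 and 2 were. The subunits of the type I receptor, IFNAR1 and IFNAR2, had log2 fold changes of 0.04 and 0.01, with 95% intervals from -0.77 to 0.85 and from -0.40 to 0.41. JAK1 had 0.19 (adjusted p = 0.811), and TYK2 had 0.12 (adjusted p = 0.952).

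Among 21 genes of nucleic acid sensing, none passed the limma test. At an unadjusted p under 0.05, 2 were lower (9.52%, against 6.36% of all genes) and 1 higher (4.76%, against 5.91%). RIGI, the sensor of uncapped viral RNA, had a log2 fold change of 0.29 (adjusted p = 0.593). TLR3, the endosomal receptor for double-stranded RNA, had 29.5 and 33.3 against 12.4 and 19.0 (log2 fold change -1.03, adjusted p = 0.243). STING1, the adaptor of cytosolic DNA sensing, named here after its values were seen, had 107 and 92.5 against 52.3 and 49.8, without overlap (log2 fold change -0.97, adjusted p = 0.104). The 11 negative regulators had log2 fold changes between -0.69 and 0.42 and no limma call. At an unadjusted p under 0.05, 1 of them was lower and 1 higher (9.09% each). Of 49 other inducible genes, the chemokine gene CXCL11 fell, from 717 and 533 to 34.2 and 31.4 (log2 fold change -4.24, adjusted p = 0.00853), with -4.22 (adjusted p = 0.0128) in its second probe set. CXCL11 did not pass without 320-IWR replicate 1 (adjusted p = 0.129) or replicate 2 (0.149). CXCL9 and CXCL10, chemokine genes that bind the same receptor and were also named after their values were seen, had log2 fold changes of 0.18 and 0.05. TRIM5, which encodes a capsid-binding restriction factor, had 113 and 78.9 against 23.4 and 19.0 (log2 fold change -2.16, adjusted p = 0.0584), and a dim second probe set had -0.07. TRIM5 passed under cyclic loess (adjusted p = 0.0423) and with equal array medians (0.0456). The medians of the 5 lists lay between -0.03 and 0.01.

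**Figure D4:**
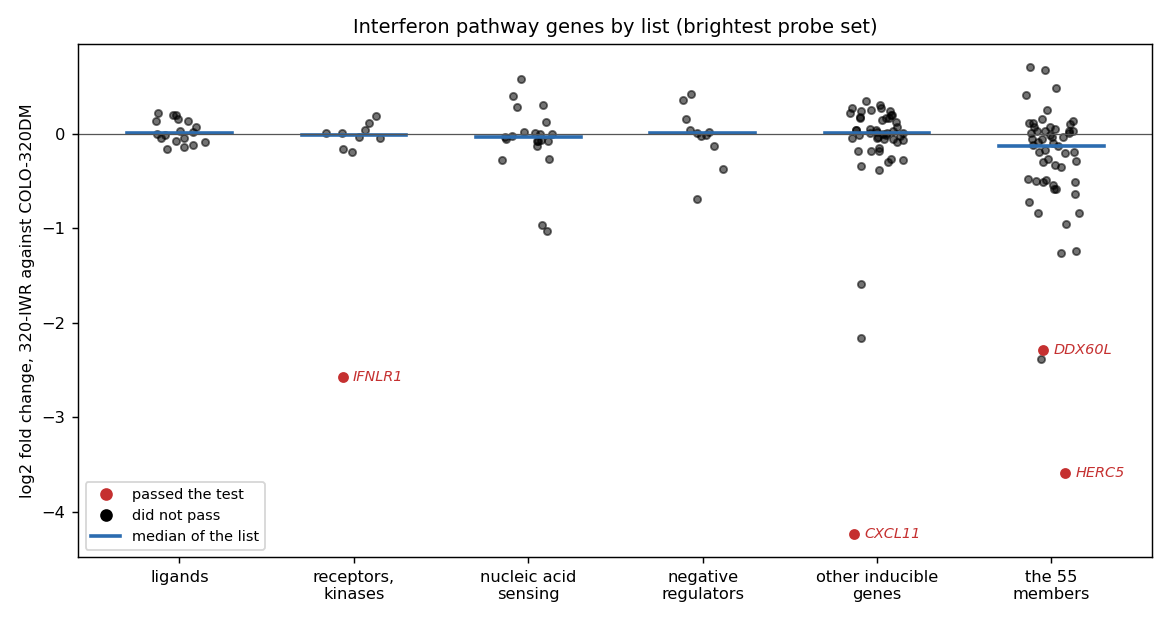
Log2 fold change of the measured genes of 5 interferon pathway lists and of the 55 members, 1 point per gene, with the genes that passed the test in red and named and a blue bar at each median. The medians of the 5 lists lie between -0.03 and 0.01 and that of the members at -0.12; CXCL11 (-4.24), IFNLR1 (-2.57), HERC5 (-3.59) and DDX60L (-2.29) passed.

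Promoter sequences were in the RefSeq table for 43 of the 55 members. The core of the response element, searched on both strands, was present in at least 1 window of 30 of them (69.8%), against 4.38% of all 27305 genes in the table. The core of the gamma-activated sequence, TTCNNNGAA, which reads the same on both strands, was present in 15 (34.9%) against 9.38%, and in 5 members the motifs shared bases. HERC5 holds 3 matches, which begin 125, 119 and 74 bases before its start, IFIT5 holds 3 at 45, 19 and 4 bases, and DDX60L holds 2 at 80 and 50 bases. ISG15, which differed little between the lines, also holds 2, overlapping ones at 113 and 107 bases. The 30 members with a match had a median log2 fold change of -0.31 and a range from -3.59 to 0.71, and the 5 members that were at least 2-fold lower were all among them. The 13 members whose windows held no match had a median of -0.12 and a range from -0.96 to 0.68. The difference between members with and without a match was not tested, and a match is a description of the letters and not a measured binding site.

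Genes beside the 3 members with the largest differences were read by their order along the chromosome in the GRCh38.p14 gene table, a choice made after their values were seen. Around HERC5, HERC6 and NAP1L5 had log2 fold changes of -0.29 and 0.32, and of the 8 nearest measured genes FAM13A had the largest value, -1.26 (adjusted p = 0.0770). DDX60L lies between DDX60 (-0.51) and PALLD (-0.62), and IFIT5 between IFIT1 (-0.30) and the dim SLC16A12-AS1 (0.16). None of these neighbours passed the test.

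The array medians over all probe sets lay between 41.0 and 41.8. The lines were checked against marker genes of the colon epithelium. CDX2, the intestinal transcription factor, was bright in both (2723 to 3403), while EPCAM, CDH1 and KRT19 were at 11.1 to 35.1 on every array. The keratin genes KRT8 and KRT18 fell and KRT20 rose in 320-IWR cells (log2 fold changes -2.26, -1.67 and 1.78), and the summed intensity of the 12 epithelial markers was 5491 to 5676 in COLO-320DM cells and 3760 to 3875 in 320-IWR cells. Their part in the values of the members was not tested. None of the 7 leukocyte, 9 fibroblast and 6 endothelial markers measured passed the test, and none had an unadjusted p under 0.05. Of 7 neuroendocrine markers none passed the test and 1, the neuronal enolase gene ENO2, had an unadjusted p under 0.05. ENO2 had 62.8 and 48.6 in COLO-320DM cells and 32.5 and 19.97 in 320-IWR cells (log2 fold change -1.12, adjusted p = 0.282). The neuroendocrine markers summed to 236 and 243 in the parental line and to 222 and 227 in the subline, and their part in the values of the members was not tested either. The summed intensities of the leukocyte, fibroblast and endothelial lists on the COLO-320DM arrays were 316 to 357, 764 to 1662 and 202 to 213, and on the 320-IWR arrays 346 to 404, 740 to 1628 and 198 to 224.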

How the data were processed

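Probe set intensities of 4 arrays were used as deposited, and each array was assigned to its line by its label. The authors made these intensities with RMA, per the labels, and their methods name GeneSpring GX for the normalization. Versions are not given in the sources used here. Values are linear, and log2 was taken here (floor 1, reached by none). After 62 control probe sets were left out, 54613 were fitted with limma 3.58.1 in R 4.3.3 (lmFit, eBayes, constant prior, cell line as the only term). The number of arrays limits the precision, and with 2 against 2 an exact permutation test of a single value cannot go below p = 0.333. Of the probe sets, 41091 carry 1 gene symbol, 1801 several and 11721 none, and genes were named from the first kind. Named are members with a called probe set, the 12 largest differences, all members of the transcription factor, OAS, IFIT and IFITM groups, the brightest member of each other group, ISG15 and MX1. Of the pathway, called genes, a few fixed genes (not all are reported here) and the 5 largest differences are named. Members and lists were chosen with earlier results of these data known, and genes named outside this rule were chosen after their values were seen. Alternatives tried were a replicate block, each array left out, equal array medians, cyclic loess, removal of dim probe sets (those whose mean log2 is under 6 in both lines), a trended robust prior, no fold limit, the mean of a gene's probe sets, and no _x_at or _s_at probe sets. The fit was tested on simulated data.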

Additional observations from a re-analysis of the deposited data

How the results depend on the processing

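Against the 2 members that fell, 4 fell with the replicate number as a block (IFIT5, adjusted p = 0.0171, and SAMD9, 0.0358, in addition). Under cyclic loess and with equal array medians 3 fell (IFIT5 in addition). Only HERC5 fell with probe sets averaged per gene and without _x_at and _s_at probe sets. In the last setting DDX60L had -0.996 (adjusted p = 0.360). The share of all genes called lower was 1.11% with the block, 0.516% under cyclic loess and 0.485% with equal array medians, against 0.399%. With averaged probe sets this share was 0.632%, and without _x_at and _s_at probe sets 0.316%. With each array left out, 0 to 1 members, 0 to 1 member probe sets and 0 to 1 other pathway genes fell, and the median of the members ran from -0.19 to -0.066. It was -0.31 over the 28 members left by the filter on dim probe sets, but DDX60L, HERC5, IFIT5, LGALS3BP, SP110 and ZC3HAV1 passed that filter through COLO-320DM cells alone, where they are high, so this median is no support for lower values. Of the 2 member probe sets, the count became 7 with the block, 4 under cyclic loess and with equal array medians, and 1 without _x_at and _s_at probe sets. Of the 2 other pathway genes, 1 was left with the mean of a gene's probe sets. No member rose in any alternative. The labels do not say whether arrays with the same replicate number share a batch, and this was not tested. The differences of replicate 2 from replicate 1 in the lines correlated with r = 0.66 across all probe sets, which are not independent, and the block moved the calls over all probe sets from 202 to 576, and brought TRIM5 past the threshold (adjusted p = 0.0226).

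Of 44 named genes, 28 kept their sign in every setting that gave a value for them. Not every named gene had a value in every setting. The filter on dim probe sets removed SAMD9 and PARP9, among others. IFIT5, among others, had no value without _x_at and _s_at probe sets. Signs of single genes were not compared with probe sets averaged per gene. Without _x_at and _s_at probe sets the sign turned in PLSCR1 (-0.0733), IFI44 (-0.15) and RIGI (-0.15), each then read from a dimmer probe set, and under cyclic loess in ADAR (-0.0029) and IFNAR2 (-0.0155). With each array left out, the log2 fold changes ran from -0.23 to 0.16 in IRF7, -0.14 to 0.19 in ADAR, -0.31 to 0.39 in OAS1, -0.30 to 0.19 in OAS2, -0.25 to 0.087 in IFIT2, -0.31 to 0.0584 in IFITM1, -0.069 to 0.35 in TRIM25, -0.14 to 0.0316 in MX1, -0.0622 to 0.21 in MX2, -0.0537 to 0.11 in SAMD9L, -0.57 to 0.63 in IFI44, -0.34 to 0.42 in IFNAR1, -0.16 to 0.17 in IFNAR2 and -0.0084 to 0.25 in TYK2. The cause of the other turns was not tested. Where a line keeps 1 array, limma assumes that it varies like the other line. Dim values limit what can be seen.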
